A study of Caenorhabditis elegans with 12 samples.

Results

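Transcript levels were taken from the 4 arrays of adults grown at 23 °C and collected just before a temperature shift (0 h). They are 4 of the 12 arrays of the study, chosen by their labels alone. All animals were wild-type Caenorhabditis elegans, strain N2 Bristol, the standard laboratory line of this nematode. Each sample was RNA of the whole body of adults, raised from bleached embryos for 2.5 days at 23 °C. The other groups were moved to 17 °C and collected 1 h (n = 2), 2 h (n = 2) and 4 h (n = 4) later. Whether the replicates are separate cultures is not stated in the labels, so every spread below is one between these samples and may be technical.

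An adult of this strain is mostly a self-fertile hermaphrodite, with a germ line that makes oocytes, an intestine that makes yolk for them, and stored sperm. Oocytes are loaded with ribosomes and maternal messages, and yolk lipoproteins, the vitellogenins, are exported by the intestine and taken up by oocytes through the receptor RME-2. Chemoreceptors, in contrast, are membrane proteins known for expression in a few sensory neurons each. In RNA of whole animals, fewer cells of a type and less RNA per cell cannot be told apart.

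Levels are log2 signals of probe sets, the groups of short probes that each read a transcript. Of 22548 probe sets, 20766 carry a single gene symbol and cover 17118 genes, and these were ranked by the mean of the 4 arrays at 0 h. Means ran between 1.67 and 14.3, with quartiles at 3.63, 5.60 and 8.58. Pearson's r over probe sets between pairs of the 4 arrays was 0.996 to 0.998, and array medians lay between 5.50 and 5.54. A signal also depends on its probes, so a rank orders signals and not the abundance of transcripts. The 2981 genes with more than 1 probe set show the size of this: their highest and lowest probe sets differed by a median of 1.24 log2 units, and by over 1 unit in 57.8% of genes. The histone deacetylase gene hda-1 had the widest such gap, with means of 11.52 and 2.28.

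The label of whole adults was set against markers of tissues. All 4 germline markers and all 3 oocyte markers measured lay above the upper quartile, the oocyte markers at 9.17 to 13.18. The adult collagen gene col-19 gave 10.63, 10.85, 10.70 and 10.73 in replicates 1 to 4, while the larval moulting gene mlt-10 gave 4.15, 3.86, 4.00 and 3.90. The other larval moulting markers, mlt-8 and noah-1, had means of 5.81 and 5.74, just above the median, so of the 3 only mlt-10 was below it. The adult collagen lay above the upper quartile in all 4 arrays, and none of the larval markers did. Of 39 single-gene markers measured (40 were listed), 28 lay above the median, and 0 lay under the lower quartile. The 3 single-gene embryonic markers were among the dim ones: the zygotic genes pes-10, end-1 and end-3 had means of 4.84 to 5.07. The sdz genes, also embryonic markers, were read within a list of 44 early zygotic genes. Of that list sdz-6 (8.94) and sdz-27 (8.72) lay above the upper quartile, and 16 genes lay under the lower.

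The highest signals came from ribosomal RNA, ribosomal proteins and yolk proteins. The probe set at rank 1 reads rrn-3.1, a gene of the large ribosomal RNA, at 14.29, 14.23, 14.36 and 14.33. All 5 of its probe sets annotated as rRNA were among the 100 highest, as was rrn-3.56, an rRNA pseudogene (13.83 ± 0.0576, SD, n = 4). The ribosomal protein genes rpl-23 (13.94 ± 0.0177) and rpl-24 (13.92 ± 0.0530) followed. The first probe set of rrn-3.1 lay above every other in all 4 arrays, while rpl-23 and rpl-24 differed by less than the spread of rpl-24.

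The yolk protein gene vit-6 stood at rank 5, with 13.97, 13.87, 13.92 and 13.87 in replicates 1 to 4. A second probe set of vit-6 gave 13.58 ± 0.0495 and stood at rank 10. Between them lay ule-3 at 13.69, 13.55, 13.71 and 13.66, one of a group of genes named for products found in the uterus. The small heat-shock gene sip-1, known for oocyte and embryo expression, gave 13.58, 13.53, 13.50 and 13.45 at rank 17. The constitutive heat-shock cognate gene hsp-1 closed the 30 highest at 13.39, 13.34, 13.36 and 13.28. These 30 probe sets, of 27 genes, had SDs between 0.0153 and 0.0815, so neighbours in this order mostly lay within one another's spread.

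**Figure D1:**
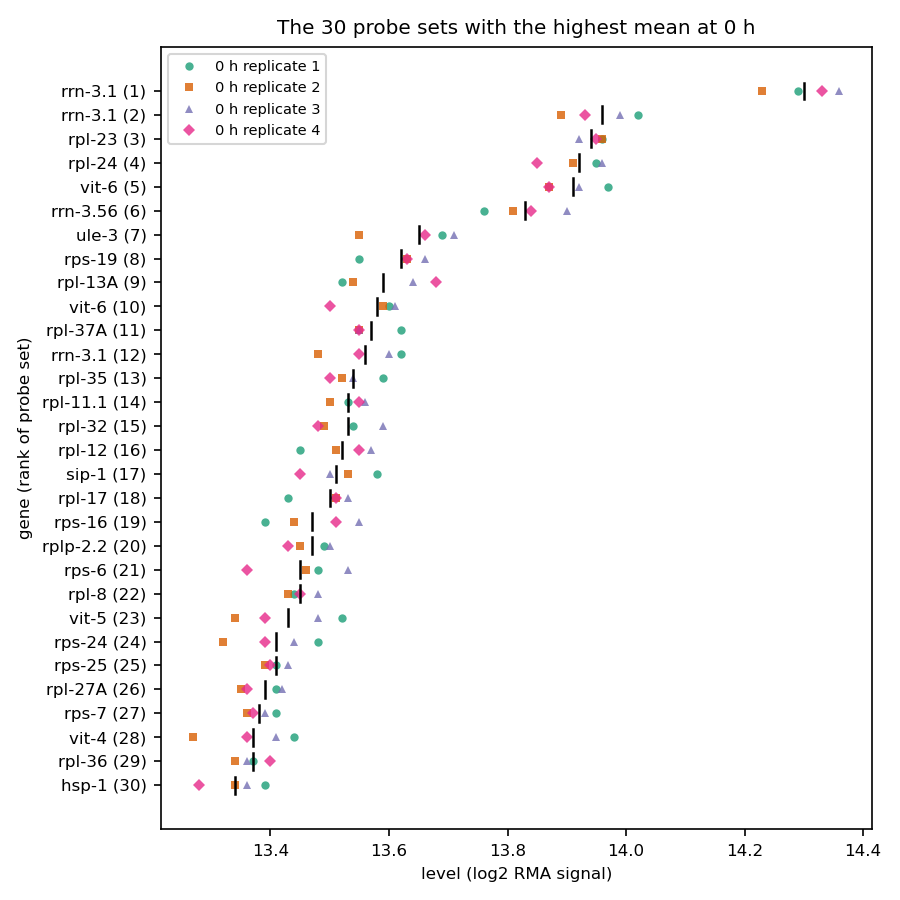
Levels of the 30 highest probe sets in each 0 h array. The x axis is log2 RMA signal, each row is a probe set with its rank, symbols are the 4 replicates and the black tick is their mean; the means run between 13.34 and 14.3, and symbols of neighbouring rows mostly overlap below rank 1.

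Ribosomal protein genes, named rpl and rps, encode the proteins of the large and small ribosomal subunit. They filled 56 of the 100 highest places, and 74 of 75 measured genes were among the 1000 highest probe sets (98.7%, against 5.01% of all genes). Their median was 13, against 5.36 for all genes. The exception was rpl-42, at 3.04, 2.82, 2.98 and 2.91, while the next lowest member had a mean of 11.31. Its only single-symbol probe set was thus dim in all 4 arrays. Elongation factors, which serve the ribosome while it extends a protein, had a median of 12 over 6 genes, led by eef-1A.1 (13.24 ± 0.0444). Among 30 initiation factors the median was 9.76, with iff-1, a germline-required member, at the top (13.22 ± 0.0330) and ife-5, a cap-binding protein gene, at the bottom (7.75). The 32 aminoacyl-tRNA synthetases, which load amino acids onto tRNAs, had a median of 10.01.

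Protein folding and turnover genes were also high. The 17 cytosolic chaperones had a median of 11.29, with hsp-1 and hsp-90 (13.18 ± 0.0394) among the 100 highest probe sets and the chaperonin subunit gene cct-3 lowest (7.64 ± 0.103). Proteasome subunits had a median of 10.92, and 32 of 33 lay above the upper quartile. The exception was rpn-6.2 (6.35), a second gene for one of the regulatory subunits. Ubiquitin was read by ubq-2, which encodes ubiquitin fused to a ribosomal protein (13.01 ± 0.0487), and by the polyubiquitin gene ubq-1 (11.94 ± 0.142). Of 11 chaperones of the endoplasmic reticulum, 10 lay above the upper quartile, with the calreticulin gene crt-1 highest (12.33 ± 0.0629).

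Most of the listed heat-inducible chaperones were low in these adults grown at 23 °C. The 5 measured genes of this list had a median of 3.56, and 3 of them (hsp-70, hsp-16.41 and hsp-12.6) lay under the lower quartile. The highest, hsp-12.3, had a mean of 6.25 ± 0.248, above the median of all probe sets, and the lowest, hsp-12.6, one of 3.12 ± 0.252; both encode small heat-shock proteins that are not known for induction by heat. Of the inducible small heat-shock genes, hsp-16.2 gave 4.69, 4.95, 5.21 and 5.46 in replicates 1 to 4 at 0 h. Its SD of 0.329 was above the 95th percentile of all probe sets (0.265), so its level differed more between these arrays than that of most genes. Inducible hsp-70 had a mean of 3.56 ± 0.127 and hsp-16.41 one of 3.51 ± 0.327. The gene of the heat-shock factor itself, hsf-1, gave 10.52, 10.45, 10.33 and 10.29, and daf-16, the transcription factor of insulin signalling, 10.14, 10.00, 10.06 and 10.06. Both regulators lay above the upper quartile in all 4 arrays.

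Genes of oocytes and the germ line were uniformly high. All 5 measured vitellogenin genes were among the 1000 highest probe sets, with a median of 13.37. The lowest of them, vit-2, gave 12.71, 12.50, 12.74 and 12.59. The probe sets that read vit-4 and vit-5 carry a suffix for probes that can match other transcripts. The yolk receptor gene rme-2 gave 12.33, 12.27, 12.40 and 12.31, close together in all 4 arrays. Among 19 eggshell and oocyte genes (median 11.56), all lay above the upper quartile, led by cbd-1, a chitin-binding eggshell protein (13.18 ± 0.118), and perm-4, a permeability barrier protein (12.47 ± 0.0452). The oocyte maturation gene oma-1 was lowest (9.17 ± 0.0477). All 24 germline genes lay above the upper quartile too (median 11.02). They ran between rec-8, a meiotic cohesin (9.33), and cey-3, a Y-box RNA-binding protein (12.21). The germ granule helicase gene glh-1 gave 11.31, 11.45, 11.61 and 11.53. Histones had a median of 10.38, and his-61 (13.24 ± 0.0728) and his-64 (13.08 ± 0.106) were among the 100 highest probe sets.

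Sperm and zygotic genes were lower. The 23 major sperm protein genes, which encode the cytoskeletal protein of crawling sperm, had a median of 6.57 and 0 above the upper quartile. The 47 other sperm genes had a median of 4.44, with spe-39 (9.86), a vesicular trafficking gene that is not limited to sperm, at the top. Early zygotic genes had a median of 4.19 over 44 genes. Of these 16 lay under the lower quartile (36.4%, against 26.6% of all genes) and 2 above the upper.

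Tissue genes of the body spread over the whole scale. Body-wall muscle and actin genes had a median of 10.3, with pat-10, a troponin C (12.42 ± 0.150), highest. The muscle myosin gene unc-54 gave 10.14, 10.13, 10.10 and 10.06, and the second body-wall myosin gene myo-3 gave 6.79, 6.68, 6.75 and 6.62. Pharynx genes were lower, with a median of 5.09 and the pharyngeal myosin gene myo-2 at 6.12, 6.01, 5.68 and 5.79. Intestine markers had a median of 8.54: the protease gene asp-1 was highest (10.82 ± 0.0446), the esterase gene ges-1 gave 7.95, 8.04, 7.99 and 7.97, and elt-2, the intestinal GATA factor gene, gave 5.28, 5.33, 5.15 and 5.24. Energy genes were high, with a median of 10.26 for 46 genes of oxidative phosphorylation and 9.80 for 16 of glycolysis. The ATP synthase subunit gene atp-5 (12.79 ± 0.0234) and the aldolase gene aldo-2 (11.73 ± 0.0770) led them.

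Collagens of the cuticle covered much of the scale. The 146 genes ran between col-163 (2.48) and col-119 (13.16 ± 0.0699), with a median of 6.05. Of these, 13 were among the 1000 highest probe sets (8.90%, against 5.01% of all genes), and 3 lay under the lower quartile (2.06%, against 26.6%). Moulting and hedgehog-related genes had a median of 4.34, and 32 of 98 lay under the lower quartile (32.65%, against 26.6% of all genes).

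Large families of defence and detoxification held members at both ends of the scale. The 220 C-type lectin genes had a median of 4.02, but clec-87 gave a mean of 13.27 ± 0.113. Among 60 lysozyme and antimicrobial peptide genes the median was 4.89, with 17 above the upper quartile and 21 under the lower, and ilys-5, an invertebrate-type lysozyme gene, had 3 probe sets among the 100 highest, at 13.01 to 13.10. The 73 cytochrome P450 genes had a median of 4.62, and cyp-31A2, a germline member needed for the eggshell, stood highest at 11.23 ± 0.0522. Glutathione S-transferases had a median of 5.08, led by gst-1 (11.08 ± 0.204), and UDP-glucuronosyltransferases one of 4.94, led by ugt-24 (10.66 ± 0.0784). The 9 superoxide dismutase, catalase and peroxiredoxin genes were brighter, with a median of 8.53, 4 above the upper quartile and 0 under the lower. Of these prdx-2 was highest (12.46 ± 0.0778) and sod-5 lowest (4.41 ± 0.0504). The retinol- and fatty acid-binding protein gene far-2 reached 12.89 ± 0.0214, and the transthyretin-like gene ttr-15 reached 12.71 ± 0.193.

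**Figure D2:**
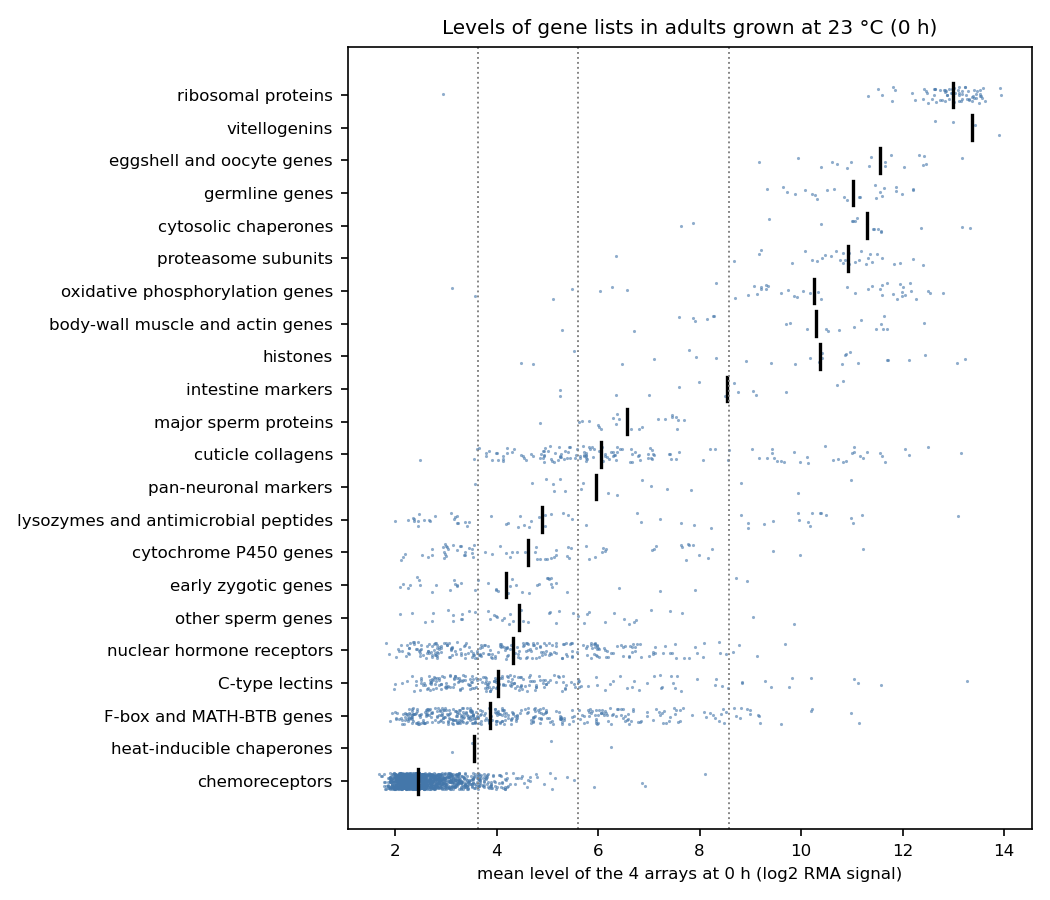
Mean level of each gene of 22 lists in the 0 h arrays. The x axis is log2 RMA signal, each dot is a gene read by its highest probe set, the black tick is the median of the list and dotted lines are the quartiles of all single-symbol probe sets; ribosomal proteins centre at 13 with rpl-42 alone at 2.94, and chemoreceptors centre at 2.46.

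Neuronal lists lay near the middle of the scale or below it. The 18 pan-neuronal markers had a median of 5.95, above the 5.36 of all genes, with 3 over the upper quartile and 1 under the lower and synaptobrevin, snb-1, highest (10.98 ± 0.0644). The marker unc-119 gave 7.37, 7.42, 7.19 and 7.43, and rab-3, a synaptic vesicle gene, gave 5.19, 5.12, 5.07 and 5.16. The guanylyl cyclase genes known from the temperature-sensing AFD neurons were dimmer: gcy-18 gave 4.91, 4.67, 4.85 and 4.97, gcy-23 gave 4.36, 4.47, 4.53 and 4.44, and gcy-8 gave 3.76, 3.91, 3.89 and 3.90. The channel gene tax-4, used by these neurons, gave 4.69, 4.81, 4.60 and 4.79. All 4 were below the median of all probe sets in all arrays and above the lower quartile. The 17 listed thermosensory neuron genes had a median of 4.47, with 3 above the upper quartile and 3 under the lower. Brightest of that list were pkc-1 (10.41 ± 0.0801), ttx-7 (9.87 ± 0.167) and tax-6 (8.96 ± 0.150), and srtx-1 was lowest (2.295 ± 0.162). Neuropeptide genes had a median of 5.13, but nlp-27, an antimicrobial-type member expressed in the skin, reached 11.93 ± 0.0456. Coelomocytes, scavenger cells of the body cavity, were read by 4 genes with a median of 5.71. Their means were 8.44 for cup-5, 6.50 for cup-4, 4.92 for lgc-26 and 4.82 for unc-122.

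Chemoreceptors were the most frequent listed family among the 100 lowest signals. The chemoreceptor gene str-200 was last, at 1.56, 1.75, 1.63 and 1.74. K08C7.4 was next at 1.54, 1.95, 1.67 and 1.63, and then srh-189, annotated as a pseudogene, at 1.68, 1.75, 1.52 and 1.88. These ranges overlap, so the order of the last places is not set beyond the spread of the arrays. The 15 lowest had means between 1.67 and 1.80. They included the chemoreceptor genes srw-120, srh-46 and srw-16. Also among them were srz-52 and srz-88, of a chemoreceptor family but annotated as pseudogenes, and the pseudogenes C08F11.2 and F07H5.4. The others were irld-55, of the insulin and EGF receptor L domain family, oac-5, of an acyltransferase family, F22B7.3, srlf-9 and ast-1. The last encodes an ETS factor of dopaminergic neurons and gave 1.82, 1.78, 1.75 and 1.81.

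Of the 100 lowest probe sets 49 read chemoreceptors. Of 1275 chemoreceptor genes, 1186 lay under the lower quartile (93.0%, against 26.6% of all genes). Their median was 2.46. The highest, srh-237, had a mean of 8.10 ± 0.142, and 0 lay above the upper quartile. Annotated pseudogenes lay under the lower quartile in 53.8% of 933 probe sets, against 23.7% of 19729 protein-coding ones, and gave 13 of the 100 lowest, 8 of them also counted as chemoreceptors. The share under the lower quartile was over 35% in 7 other lists. It was 60.0% (3 of 5) for the listed heat-inducible chaperones, the 3 including hsp-12.6, which is not known for induction by heat. The share was 45.3% for F-box and MATH-BTB genes, adaptors of ubiquitin ligases (median 3.86), and 40.0% for potassium channels (4.04). It was 38.4% for cytochrome P450 genes, 37.7% for C-type lectins, 36.4% for early zygotic genes (4.19) and 35.8% for nuclear hormone receptors (4.32). Of these 7 the chaperones and the channels had 0 genes above the upper quartile, while the others had bright exceptions, such as fbxc-50 at 11.15 ± 0.0285 and nhr-49, a regulator of fat metabolism, at 9.69 ± 0.0349. A second probe set of fbxc-50 had a mean of 2.75. The dopamine transporter gene dat-1, seen among the 100 lowest and named after its values were seen, had 1.81 on one probe set and 4.14 on the other. Signal over background was not assessed, so low values here are not evidence that a gene was silent.

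Probe design differed between the ends of the scale. Of the 100 highest probe sets 69 have an identifier whose suffix marks probes that can match more than 1 transcript. Among the 100 lowest 5 do, and among all single-symbol probe sets 27.9% do. Without these probe sets, 32 of the 100 highest read ribosomal proteins and 34 ribosomal protein genes were among the 1000 highest. The filter can leave a gene with no probe set at all. How many of the 75 ribosomal protein genes it left is not given here, so 34 is not a share of 75. Whether shared probes raise these signals was not tested.

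The 4 arrays were close to each other for most genes. The SD at 0 h had a median of 0.119 over all single-symbol probe sets, and 84.3% had an SD under 0.2. Only 52 probe sets (0.250%) spanned over 1 log2 unit. Spread varied with level: the median SD was 0.0870 above the upper quartile of levels, 0.121 between it and the median, 0.144 between the median and the lower quartile, and 0.134 below that. Ribosomal protein genes had a median SD of 0.0480, against 0.0498 for the 100 highest probe sets and 0.0747 for the 1000 highest, and rps-25 was among the steadiest named, at 13.41, 13.39, 13.43 and 13.40. The 100 widest spreads began at an SD of 0.394 (0.393 just outside), and by level 7 of them lay above the upper quartile, 39 and 44 on either side of the median, and 10 under the lower quartile.

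**Figure D3:**
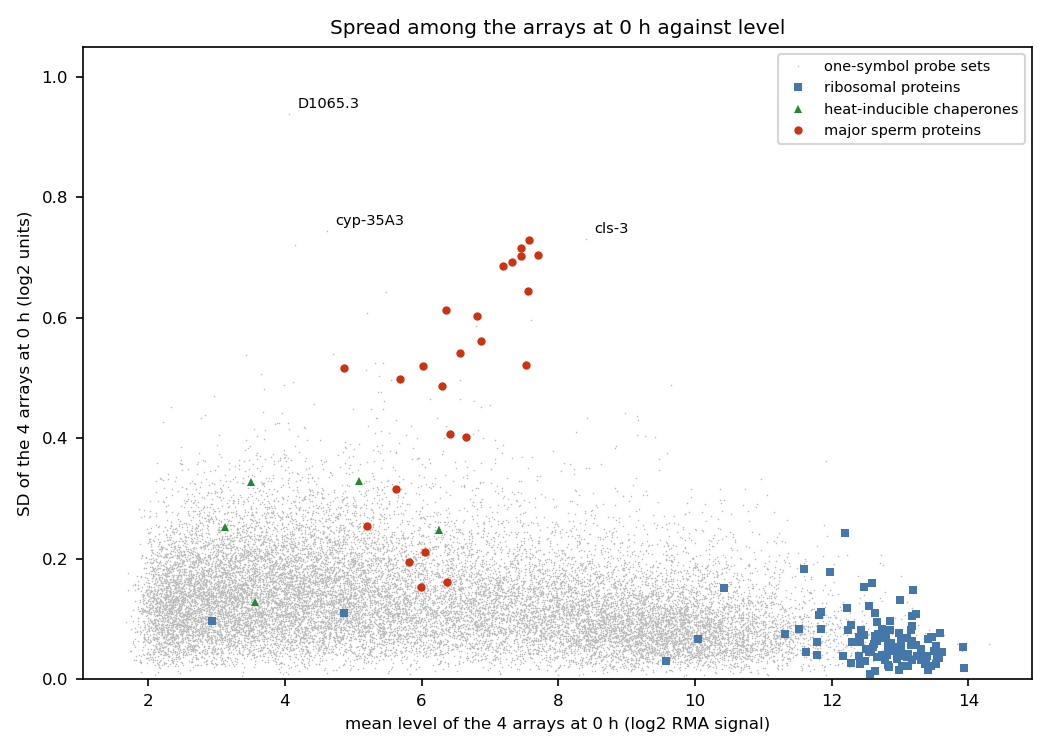
SD of the 4 arrays at 0 h (y axis, log2 units) against their mean level (x axis, log2 RMA signal) for each single-symbol probe set (grey). Ribosomal protein probe sets lie mostly at high level and low SD, while major sperm protein probe sets, of middle level, reach SDs of up to 0.729.

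Major sperm protein genes held 18 of the 100 widest spreads and 15 of the 30 widest, from 24 probe sets in all. The widest, msp-55, gave 7.04, 7.64, 7.03 and 8.58 in replicates 1 to 4 at 0 h (SD 0.729). The brightest, msp-65, gave 7.24, 7.82, 7.10 and 8.65, and msp-76 gave 6.93, 7.65, 6.84 and 8.37. Replicate 4 was highest and replicate 3 lowest in each of these, and in all 18 of the widest. Over the 24 probe sets, replicate 4 exceeded the mean of the other arrays by a median of 0.962 log2 units (0.192 to 1.34). It was the highest array in 23, and msp-142 was the exception. The narrowest spread was that of msp-63, at 5.96, 6.06, 5.79 and 6.15 (SD 0.153).

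The pattern came back at 4 h, where replicate 4 was again the highest array in 23 of the 24 and in all 18 of the widest. There msp-55 gave 7.10, 6.61, 6.79 and 8.52 in replicates 1 to 4, and msp-65 gave 7.30, 6.71, 6.89 and 8.42. Replicate 4 exceeded the mean of the other 4 h arrays by a median of 1.38 log2 units. Replicate 2, in second place at 0 h, was the lowest array at 4 h for both genes. The list's median per array was 6.10, 5.86, 5.93 and 7.17 at 4 h and 6.26, 6.62, 6.20 and 7.25 at 0 h.

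Other sperm genes were not mostly highest in replicate 4. Of their 48 probe sets at 0 h, replicate 4 was highest in 12 (25%, against 23.7% of all single-symbol probe sets). Replicate 2 was highest in 18 and replicate 3 lowest in 18 (in 5246 and 4868 of all 20766), and replicate 3 was also the lowest in 21 of the 24 major sperm protein probe sets. Their list's median was 4.51, 4.39, 4.29 and 4.35 at 4 h and 4.45, 4.46, 4.25 and 4.44 at 0 h. The sperm gene spe-11, a marker of its own, gave 3.80, 4.30, 3.99 and 4.44 at 0 h. The median of eggshell and oocyte genes was 11.53, 11.60, 11.55 and 11.63 at 4 h and 11.50, 11.48, 11.60 and 11.60 at 0 h. The probe sets are not independent: 23 of the 24 carry a suffix for probes that can match other genes, and the family has many near-identical copies, so msp values cannot be assigned to single genes. A further 8 probe sets annotated to several msp genes were also highest in replicate 4 at both times. Without replicate 4 at 0 h, 1 msp probe set was left among the 100 widest, and without probe sets that can match other transcripts 0 were.

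**Figure D4:**
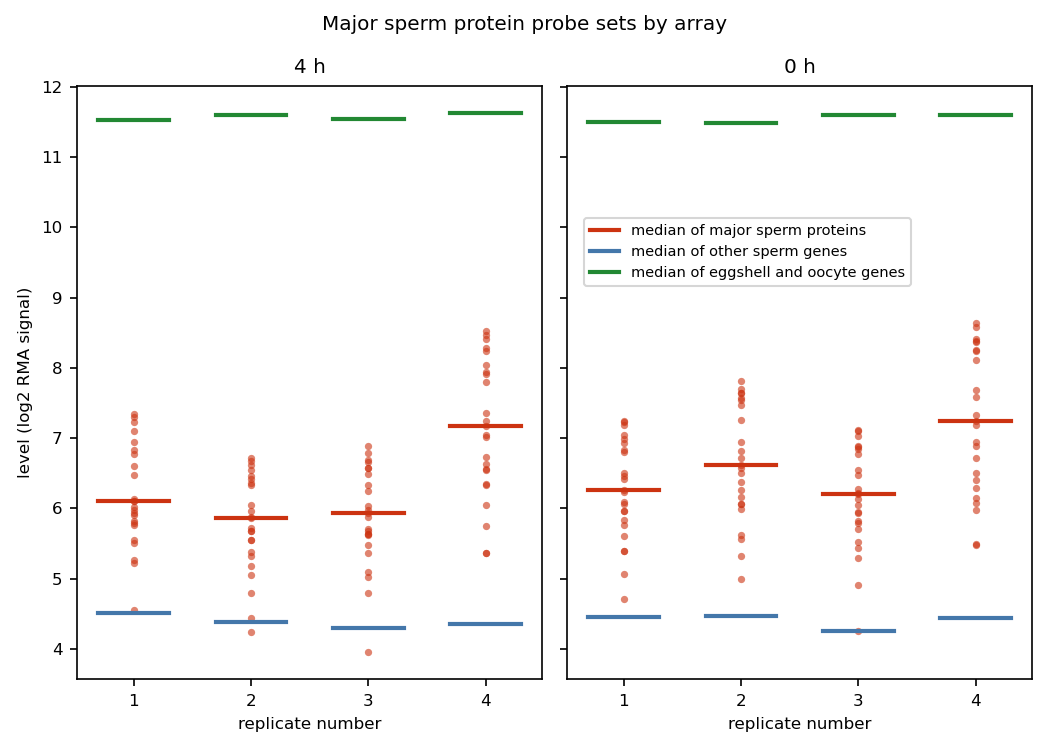
Levels of the 24 major sperm protein probe sets (dots) in each 4 h array (left) and 0 h array (right), by replicate number on the x axis and log2 RMA signal on the y axis. Bars are per-array medians of 3 gene lists; the major sperm protein median stands highest in replicate 4 at both times, at 7.17 at 4 h and 7.25 at 0 h, while those of other sperm genes stay between 4.25 and 4.51.

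The widest spread of all was that of D1065.3, a gene with no role assigned here and annotated as a pseudogene on this probe set. It gave 5.46, 3.63, 3.73 and 3.43 at 0 h (SD 0.938), and a second probe set of the same gene gave 5.15, 4.18, 3.69 and 3.55 (SD 0.721). Replicate 1 was highest on both. At 4 h they gave 5.95, 3.84, 3.64 and 3.28, and 4.92, 3.81, 3.55 and 3.68, with replicate 1 highest again.

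A cytochrome P450 gene of a family induced by foreign compounds, cyp-35A3, was second in spread, at 4.76, 5.03, 3.53 and 5.16 (SD 0.744). Replicate 3 was lowest there. The related genes cyp-35A2 (8.39, 8.40, 7.65 and 8.57) and cyp-35D1 (5.13, 5.83, 4.98 and 5.68) were also among the 100 widest and lowest in replicate 3. They are outside the naming rule and were chosen after their values were seen. Replicate 3 was lowest in 43 of the 100 widest at 0 h (in 4868 of all 20766). At 4 h replicate 1 was lowest for cyp-35A3 (3.395) and cyp-35D1 (6.08), and replicate 3 for cyp-35A2 (7.88). The CLASP-family gene cls-3, of microtubule regulation, gave 7.84, 9.30, 8.84 and 8.54 at 4 h and 7.36, 8.90, 8.93 and 8.41 at 0 h. Replicate 1 was lowest at both times. The collagen gene col-129 gave 7.34, 6.29, 7.06 and 7.43 at 4 h and 7.32, 7.33, 7.24 and 8.49 at 0 h. Its high value in replicate 4 at 0 h thus stood apart from the other 0 h arrays, while at 4 h replicate 4 lay beside replicate 1.

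The infection response gene irg-5 gave 6.20, 6.66, 7.60 and 6.72 at 0 h, highest in replicate 3, and djr-1.2, a glyoxalase of the DJ-1 family, gave 6.10, 4.91, 4.75 and 5.08, highest in replicate 1. Each kept its highest replicate number at 4 h (6.84 in replicate 3 and 6.09 in replicate 1). F58A6.9, with no role assigned here, gave 4.95, 5.63, 5.03 and 6.33, the order of the 2 highest arrays being that of the major sperm protein genes. The neuropeptide gene nlp-51 gave 5.51, 4.37, 4.40 and 4.54 and did not keep its order: at 4 h replicate 2 was highest (5.42). The metal transporter gene smf-3 gave 6.11, 5.15, 4.92 and 5.58 at 0 h, and at 4 h replicate 1 was the lowest (4.95). The Skp1-related gene skr-10 gave 4.74, 5.05, 5.55 and 5.92, and cpt-4, a carnitine palmitoyltransferase gene, gave 3.54, 3.08, 4.31 and 3.66. The least characterised of the group were Y34F4.3 (SD 0.514) and ZC443.1 (SD 0.538). The heme trafficking gene hrg-3 gave 5.31, 5.09, 4.99 and 6.10.

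**Figure D5:**
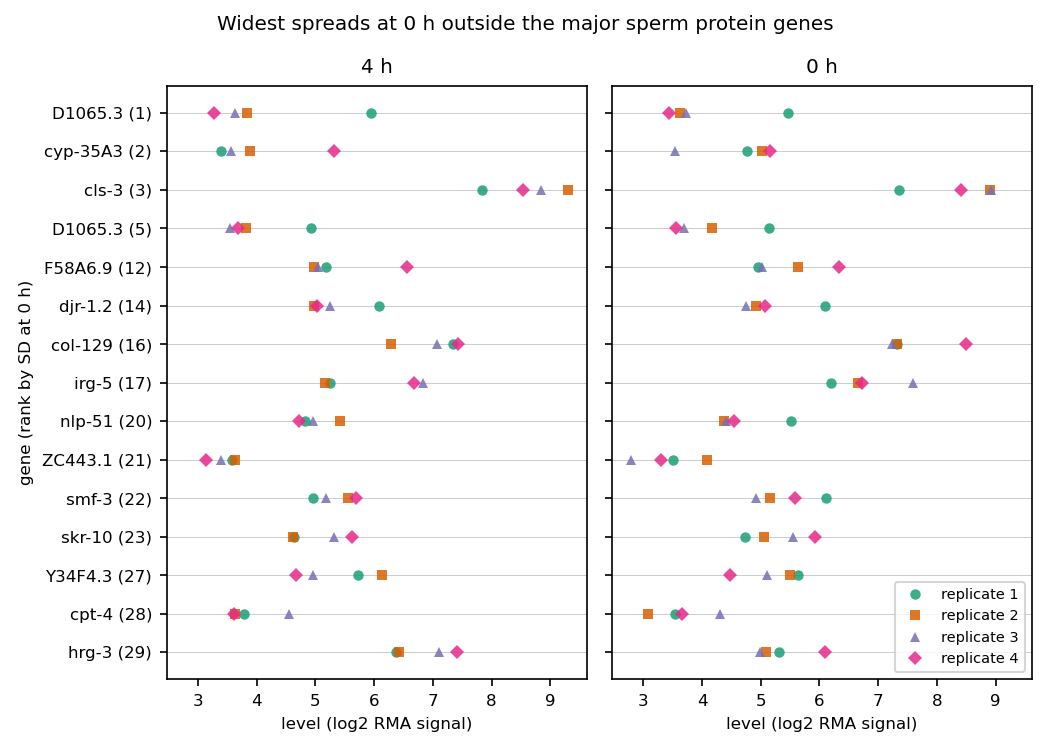
Levels of the 15 probe sets among the 30 widest spreads at 0 h that do not read major sperm proteins, in 4 h arrays (left) and 0 h arrays (right). The x axes are log2 RMA signal, rows carry the rank by SD at 0 h and symbols are replicate numbers; D1065.3 is highest in replicate 1 and cls-3 lowest in replicate 1 at both times, while nlp-51 and smf-3 change order.

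For many of the widest spreads the highest array at 0 h and at 4 h had the same replicate number. Of the 100 widest, 61 had their highest value in the same replicate number at 4 h, against 35.8% of all single-symbol probe sets, and 58 were among the 5% of widest spreads at 4 h. Outside the major sperm proteins the counts were 43 (52.4%) and 40 (48.8%) of 82. Of the 100, the lowest value was in the same number for 38 (34.6% of all), and the same 2 numbers were uppermost for 33 (29.7% of all), both nearer to the shares of all probe sets. At 0 h replicate 4 was highest in 48 of the 100 (23.7% of all probe sets) and replicate 1 in 25 (27.9%). Replicate 2 was highest in 14 (25.3%) and replicate 3 in 13 (23.1%). Of the 48, 18 were major sperm protein probe sets. Outside these, replicate 4 was highest in 30 of 82 (36.6%) and replicate 1 in 25 (30.5%). The labels do not say what arrays of the same number share. The part of handling, culture and array in these spreads was not tested.

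Levels at 23 °C were also set beside those after 4 h at 17 °C, to see whether the ends of the scale hold at both. Of the 100 highest probe sets at 0 h 98 were among the 100 highest at 4 h, and of the 100 lowest 69 were among the 100 lowest and 100 among the 1000 lowest. In limma 518 of all 22548 probe sets (2.30%) passed an adjusted p of 0.05, of which 301 (1.33%) were higher at 4 h and 217 (0.962%) lower. Of the 100 highest 0 passed, with changes (4 h minus 0 h) between -0.11 and 0.13, and of the 100 lowest 0 passed, with changes between -0.14 and 0.30. Of the 100 widest 3 passed, all higher at 4 h: the F-box gene fbxc-58 and both probe sets of the endoribonuclease gene endu-2. The 0 h spread that chose these 100 also enters the error of the fit, which makes a pass harder for them. Their count is thus not comparable with the 2.30% of all probe sets. For fbxc-58 the values were 5.12, 4.97, 5.33 and 5.44 at 4 h and 3.78, 3.40, 4.36 and 4.42 at 0 h, with no overlap (log2 change 1.22, limma adjusted p = 0.00876). For the brighter endu-2 probe set they were 9.31, 9.18, 9.26 and 9.08 at 4 h and 6.70, 6.91, 7.62 and 7.05 at 0 h (2.14, limma adjusted p = 7.85e-05). These genes were named after their values were seen. Of the 5 genes listed as heat-inducible chaperones, hsp-12.3 and hsp-12.6 included, 2 passed, both lower at 4 h. For hsp-16.2 the values were 2.94, 4.02, 3.92 and 4.08 at 4 h and 4.69, 4.95, 5.21 and 5.46 at 0 h (log2 change -1.34, limma adjusted p = 0.00689), and for hsp-16.41 the change was -0.84 (limma adjusted p = 0.00918). The hsp-16.2 groups did not overlap.

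Of the 30 widest 0 passed, a count that the choice by 0 h spread also lowers, so it does not show that their levels held. The heme trafficking gene hrg-3 came nearest, at 6.38, 6.42, 7.11 and 7.42 at 4 h, against 5.31, 5.09, 4.99 and 6.10 at 0 h. The groups did not overlap, and the log2 change was 1.46 (SE 0.392, limma adjusted p = 0.0823). It passed once replicate numbers entered as a block, with limma adjusted p = 0.0366 over the 12 arrays and 0.00960 over the 8 arrays of these times. The changes of all 24 major sperm protein probe sets were below 0, with a median of -0.33 over the genes, against -0.0146 over all genes. Their limma adjusted p lay between 0.207 and 0.899, and these probe sets are not independent. The list's median moved most in replicate 2, at 5.86 at 4 h and 6.62 at 0 h. It moved least in replicate 4, at 7.17 and 7.25. The share of all probe sets with a change below 0 is not given here. The comparison with 4 h holds time and handling as well as temperature, as the study has no array of animals left at 23 °C over that time.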

How the data were processed

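The authors deposited RMA summaries of 12 Affymetrix arrays, as a log2 signal for each probe set, per the submitters' processing notes. Base 2 was inferred from the method and range. A genome build is not given in the sources used here, so no coordinates are printed. Gene names come from the platform annotation (20701 of 20766 single-symbol probe sets matched a WBcel235 gene table, which changed 0 symbols). No scanner files were used. Cross-matching probes were taken from identifier suffixes.

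Means and SDs over the 4 arrays at 0 h were computed in Python 3.11.15 (pandas 2.3.3). Named genes are the 30 highest, 15 lowest and 30 widest, the 10 widest above the median, up to 4 highest and the lowest of each of 45 lists, and 23 fixed genes (21 measured). The members, lists and rule were chosen with earlier results of these data known. A listed gene is read by whichever of its probe sets is brightest at 0 h. limma 3.58.1 (R 4.3.3) gave the 4 h minus 0 h contrast from a fit of all 12 arrays, two-sided, with Benjamini-Hochberg adjustment over 22548 probe sets (8 residual and 5.03 prior degrees of freedom). Data were also simulated with independent normal noise in each array and no effect shared by replicate number. On these limma recovered 64% of changes of 0.5 log2 units and 98% of 1, with 11 false of 173 calls. The real arrays may differ from that setting, so these shares may not hold for them. Deviations of 4 h and 0 h arrays of the same replicate number correlated at 0.169 to 0.314 in 4 of 4 pairs. Those of unlike numbers correlated at -0.29 to 0.147. The numbers were therefore taken to pair arrays in the alternatives with a block, while the main fit used no pairing. This pairing comes from the values, not the labels. Alternatives were other summaries, probe filters, normalization, left-out replicates and blocks. The number of arrays limits the precision.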

Additional observations from a re-analysis of the deposited data

Results flagged for a closer look

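Among 94 named probe sets at 0 h, 6 (6.38%) had 1 array far from the other 3 for the spread of its group, against 5.23% of all single-symbol probe sets; chance alone gives about 1 in 20. The array was replicate 1 in 5 of them and replicate 4 in 1. The ribosomal protein gene rpl-37A read 13.62 in replicate 1 and 13.55 in each of the others. The collagen gene col-129 read 8.49 in replicate 4 and 7.24 to 7.33 in the others. The neuropeptide gene nlp-51 read 5.51 in replicate 1 and 4.37 to 4.54 in the others. The wider probe set of D1065.3 read 5.46 in replicate 1 and 3.43 to 3.73 in the others. The guanylyl cyclase gene gcy-8 read 3.76 in replicate 1 and 3.89 to 3.91 in the others. The chemoreceptor gene srw-120 read 1.81 in replicate 1 and 1.71 to 1.73 in the others.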

How the results depend on the processing

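The 100 highest and 100 lowest at 0 h moved little with the median in place of the mean, or with quantile normalization. Without probe sets that can match other transcripts, 31 of the 100 highest were shared, 32 read ribosomal proteins, 34 ribosomal protein genes were among the 1000 highest, 63 of the 100 widest were shared and 0 of these read major sperm proteins; this alternative removes those probe sets by its construction. The 100 widest shared 47 with a ranking by median absolute deviation and 48 with one over probe sets above the median alone. Without single 0 h replicates they shared 50 to 71, and 1 to 18 read major sperm proteins, with the lowest of both without replicate 4. Without single replicates the 100 highest shared 98 to 99 and the 100 lowest 81 to 87. For 4 h minus 0 h, 324 to 418 probe sets were called without single replicates (181 to 250 higher and 135 to 182 lower), against 518 in the main fit. These are totals under each setting, and how many of the 518 were among them was not counted. The fewest in all were called without replicate 3 at 4 h, and the fewest lower without replicate 4 at 0 h. Without replicate 2 at 0 h 344 were called, and without replicate 3 at 0 h 345. With the replicate number as a block, 615 were called over the 12 arrays and 634 over the 8 of 0 h and 4 h. Of the named probe sets the block changed the call of hrg-3 only (adjusted p = 0.0366 and 0.00960), which also passed over the 8 arrays without it (0.0197) and with a trend in the prior (0.0338). The cause of these moves was not tested. Of 607 named levels under the alternatives, 607 kept within the spread, and 1045 of 1049 changes kept their call. For the levels, a median or a mean with a replicate left out always lies within the SD of the full mean. For those alternatives the outcome was thus fixed in advance and does not show that the levels are robust. Signal over background was not assessed, which limits low levels.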

Other observations

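Some brighter genes among the 100 widest spreads split the arrays into replicates 1 and 2 against 3 and 4 at both times. They were picked after their values were seen, and the split was not tested. The TATA-binding protein-associated factor gene taf-3 gave 9.78, 9.44, 8.95 and 8.98 at 4 h and 9.55, 9.12, 8.62 and 8.65 at 0 h, high in replicates 1 and 2. Its other probe sets had SDs of 0.209 and 0.0960 at 0 h, against 0.441 on this one. The MAP kinase kinase gene sek-1, of innate immunity, gave 7.51, 7.58, 6.71 and 6.90 at 4 h and 7.30, 7.46, 6.54 and 6.67 at 0 h. Its brighter probe set had an SD of 0.148 at 0 h. Others were high in replicates 3 and 4. The gene sysm-1 gave 8.75, 8.93, 9.53 and 9.41 at 4 h and 8.76, 8.81, 9.44 and 9.62 at 0 h, and B0035.13 gave 6.35, 6.83, 7.16 and 7.15 at 4 h and 6.37, 6.40, 6.94 and 7.34 at 0 h. Over all single-symbol probe sets the 2 highest arrays at 0 h were replicates 1 and 2 in 22.6% and replicates 3 and 4 in 19%, against 17 and 21 of the 100 widest. Replicates 2 and 4 were the upper pair in 35 of the 100 widest, of which 18 were major sperm protein probe sets, against 16.14% of all.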
